A study of Homo sapiens with 36 samples.

Results

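MALAT1, NEAT1 and PVT1 are 3 long noncoding RNAs, chosen by name and matched to 3 of the 15891 genes of a deposited table of normalised read counts. The counts come from HCT116, an established human cell line derived from a colorectal carcinoma, exposed to 10 µM 5-fluorouracil (5-FU) for 48 h. 5-FU is a pyrimidine analogue that inhibits thymidylate synthesis and is also incorporated into RNA and DNA. The groups are 6 collections of the same line: D0, taken before the drug was added, D1 and D2, taken during the exposure, and D7, D14 and D16, taken afterwards. All groups went through the same fractionation, in which cells received emetine, an inhibitor of translation elongation, and nuclei (at 750 g) and then mitochondria were pelleted away. The remaining lysate gave the cytoplasmic RNA, and a sucrose gradient of it gave a heavy pool of fractions whose mRNA carried more than 3 ribosomes. Each of the 12 groups had 3 libraries, lettered A, B and C, which makes 36 in all. The labels call the letters batches and do not say whether they were separate cultures, so p-values measure the spread between these samples only. No untreated culture was carried to the later days, so the drug and time in culture cannot be told apart. The labels do not say how the cultures were handled after D14.

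Long noncoding RNAs work as RNA and do not serve mainly as templates for protein. MALAT1 lies in nuclear speckles, bodies that store splicing factors. NEAT1 is the architectural RNA of paraspeckles, nuclear bodies that its long form builds with proteins such as SFPQ, NONO and PSPC1, and its gene is a known p53 target. PVT1 is a neighbour of the MYC oncogene, is often co-amplified with it in tumours, gives linear and circular RNAs, and has also been described as a p53 target. MALAT1 and NEAT1 are mainly nuclear in most cells, so the fractions measured here hold what is found outside the pelleted nuclei, with any nuclear RNA carried over.

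The libraries were made from poly(A) RNA captured with oligo-dT, and these transcripts end in different ways. MALAT1 and the long form of NEAT1 are not tailed in the usual manner: their ends are cut by RNase P in front of a tRNA-like small RNA, and an A-rich tract written in the genome folds into a triple helix. The short form of NEAT1 ends at an ordinary polyadenylation site. The last 60 bases of each, as written in the genome, are shown. Capitals mark runs of at least 3 A for the MALAT1 and long NEAT1 ends, and the signal AATAAA for the short form. The poly(A) tail added to short NEAT1, which a capture would meet, is not part of its window.
MALAT1: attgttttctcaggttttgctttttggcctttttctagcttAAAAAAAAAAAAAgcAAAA
NEAT1 long: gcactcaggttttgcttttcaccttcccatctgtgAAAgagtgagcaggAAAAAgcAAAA
NEAT1 short: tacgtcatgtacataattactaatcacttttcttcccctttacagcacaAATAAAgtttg
The stretches lie on the plus strand of GRCh38 at chr11:65506057-65506116, chr11:65445481-65445540 and chr11:65426454-65426513. The first and second end directly before the small RNA that GENCODE 29 annotates there, and they share their last 11 bases. Of their last 20 bases, 17 are A in MALAT1 and 11 in long NEAT1, against 9 in short NEAT1, whose added tail is not counted. As many A were found at 0.603, 9.22 and 22.9 percent of 206435 annotated transcript ends. AATAAA, searched on the transcript strand, was found in the short NEAT1 window and in 25.2 percent of all such ends, and not in the other windows. These matches describe the letters and do not show which ends were captured.

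All 3 genes are annotated as intergenic long noncoding RNAs on the plus strand. NEAT1 (ENSG00000245532, chr11:65422774-65445540, 8 transcripts) and MALAT1 (ENSG00000251562, chr11:65497688-65506516, 17 transcripts) are neighbours, with 52148 bp between the end of NEAT1 and the start of MALAT1. PVT1 (ENSG00000249859, chr8:127794533-128101253, 25 transcripts) starts 53099 bp after the end of MYC. It spans 306721 bp but its exons cover 5493 bp. The values are sums over a whole gene, so the forms of NEAT1 and the linear and circular forms of PVT1 could not be separated. Whether counting used the strand is not stated. Genes annotated on the opposite strand of MALAT1 and PVT1 are not among the table's rows, and reads from them cannot be told apart here.

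Library totals ran from 41.0 to 103.6 megareads in the cytoplasm and from 46.1 to 55.7 megareads in the heavy pool. The thinnest member value rested on 129 reads. Mitochondrial transcripts took 3.57 to 13.6 percent of cytoplasmic and 0.181 to 3.93 percent of heavy pool reads. All 8 colorectal epithelial markers checked were in the table (KRT8 had a cytoplasmic median of 216999 and EPCAM of 11668 normalised counts), whereas 3 of 15 markers of other lineages were (HBA1, COL1A1 and DES, together 561 to 654 in the D0 cytoplasm, 2013 to 2169 at D1 and 1494 to 1633 at D2). The part of these markers in the results was not tested. Cytoplasmic libraries D14 B and D16 B stood apart from their day's other letters along the GC content of genes (r across genes 0.74 and 0.69). Some results that use these libraries are also given without them, and others only with them. Without both, 69 member comparisons kept their direction and call, 2 passed that had not, and 1 no longer passed. On D14 and D16 the heavy pool resembled the cytoplasm more than on earlier days: the middle 90 percent of genes lay between -0.58 and 0.50 (log2, heavy minus cytoplasm) at D14, against -1.38 and 1.07 at D0. In bulk RNA of this kind, fewer cells of a type and less RNA per cell cannot be told apart.

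**Figure D1:**
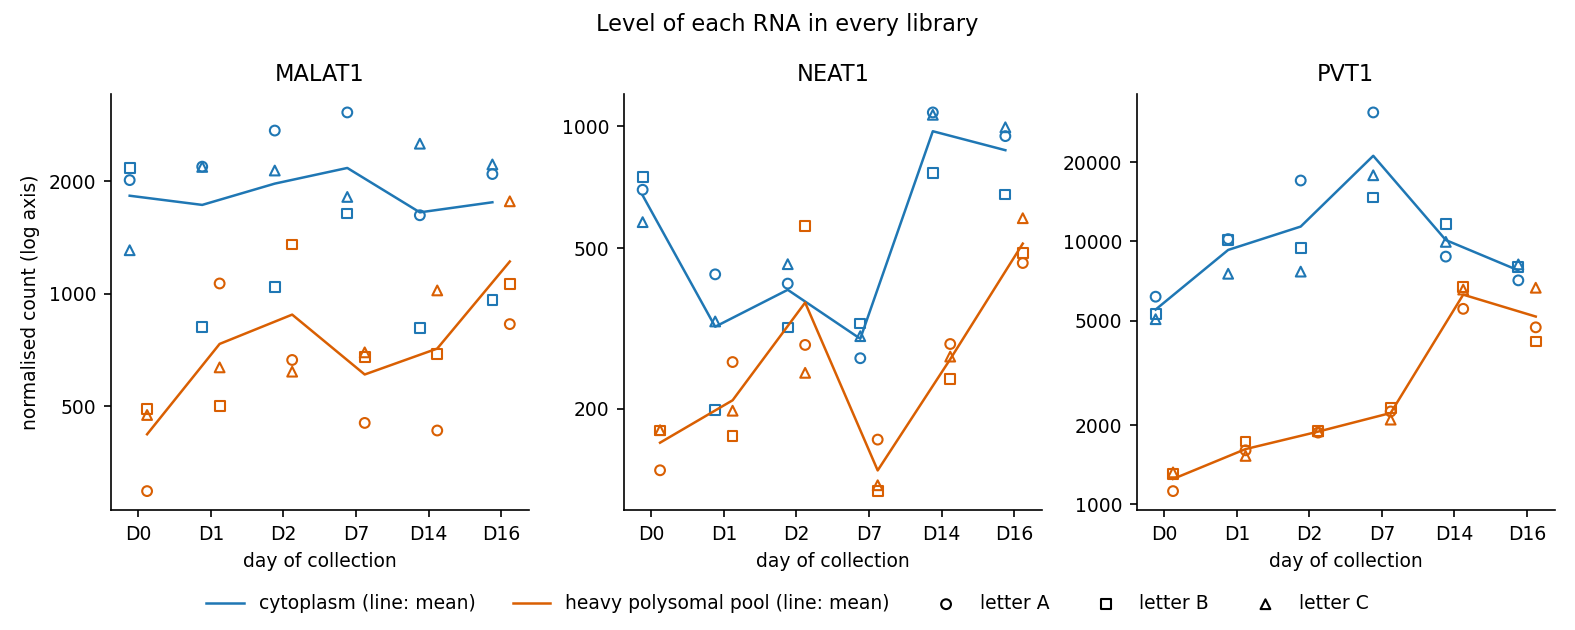
Normalised count of MALAT1, NEAT1 and PVT1 on a log axis in each cytoplasmic (blue) and heavy pool (orange) library by day of collection, with marker shapes for the letters and lines through the means of 3 libraries. Cytoplasmic NEAT1 was lowest on D1, D2 and D7, cytoplasmic PVT1 peaked at D7, and heavy pool PVT1 stepped up at D14.

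Per kilobase of exon, PVT1 was the most abundant of the 3 RNAs in both fractions and NEAT1 the least. At D0 the cytoplasm held 1002 ± 106 normalised counts per kb of PVT1 (SD, n = 3), 207 ± 51.9 of MALAT1 and 29.6 ± 3.81 of NEAT1. PVT1 thus stood above 84.4 percent of the genes in the table, MALAT1 above 56.4 percent and NEAT1 above 19.2 percent. In the D0 heavy pool the levels per kb were 227 ± 19.9, 47.7 ± 12.2 and 7.24 ± 0.91, above 56.5, 27.2 and 5.73 percent of genes. The highest level of any member was PVT1 in the D7 cytoplasm (3856 ± 1571 per kb), and the lowest was NEAT1 in the D7 heavy pool (6.18 ± 1.03 per kb). For NEAT1 the length is that of the long form, so a level carried by the short form is divided by more bases than it has.

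NEAT1 fell in the cytoplasm at D1, D2 and D7, and at D14 its values lay above those of D0. Its cytoplasmic normalised counts in letters A, B and C were 697, 749 and 580 at D0, 430, 198 and 329 at D1, and 408, 318 and 456 at D2. They were 267, 325 and 302 at D7, then 1083, 767 and 1069 at D14 and 947, 678 and 995 at D16. Every library of D1, D2 and D7 lay below every D0 library, and the D14 libraries lay above them all. In log2 units, NEAT1 changed by -1.14 ± 0.27 at D1 (SE, adjusted p = 0.00757), by -0.78 ± 0.27 at D2 (adjusted p = 0.0408) and by -1.17 ± 0.27 at D7 (adjusted p = 0.00361, 2.26-fold lower). Between D7 and D14 it rose 3.23-fold (1.69 ± 0.27, adjusted p = 0.000583; 1.85 without cytoplasmic D14 B and D16 B, adjusted p = 0.000779). D14 and D16 did not pass against D0 (0.52 ± 0.27, adjusted p = 0.228, and 0.36 ± 0.27, adjusted p = 0.400). In the order of means (D14, D16, D0, D2, D1, D7) the neighbours overlapped except D0 and D2. The D2 call was lost without any 1 of the 6 libraries other than D2 C (adjusted p from 0.055 to 0.163) and with total-sum scaling (adjusted p = 0.0694), and the D1 call without D1 B (-0.83, adjusted p = 0.0604). Without letter C throughout, D1, D2 and D7 all missed the threshold (adjusted p 0.0979, 0.125 and 0.064), with differences of -1.30 at D1 and -1.29 at D7.

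NEAT1 took another course in the heavy pool: it rose at D2, when the cytoplasmic level was low, and again at D14 and D16. The heavy pool normalised counts were 141, 177 and 177 at D0, 261, 171 and 198 at D1, and 288, 566 and 245 at D2. They were 168, 125 and 129 at D7, 289, 237 and 269 at D14, and 459, 487 and 593 at D16. The D2, D14 and D16 libraries lay above all D0 libraries, and D2 B was far above A and C of its day. Against D0, NEAT1 rose 2.08-fold at D2 (1.06 ± 0.22, adjusted p = 0.000262), 1.61-fold at D14 (0.69 ± 0.22, adjusted p = 0.00898) and 3.10-fold at D16 (1.63 ± 0.22, adjusted p = 9.01e-07). D1 (0.33 ± 0.22, adjusted p = 0.233) and D7 (-0.23 ± 0.22, adjusted p = 0.376) did not pass. Between collections it rose from D1 to D2 (0.72, adjusted p = 0.00959), fell by 1.29 from D2 to D7 (adjusted p = 3.93e-05), then rose from D7 to D14 (0.92, adjusted p = 0.0013) and from D14 to D16 (0.94, adjusted p = 0.00587). The D1 to D2 rise was lost without D2 B (0.36, adjusted p = 0.123) or D1 B (adjusted p = 0.0551), and the D14 rise without letter A (0.51, adjusted p = 0.121). In the order of means (D16, D2, D14, D1, D0, D7) all neighbours overlapped.

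MALAT1 did not pass against D0 in the cytoplasm on any of the 5 days. Its cytoplasmic normalised counts were 2014, 2166 and 1308 at D0, 2188, 814 and 2184 at D1, and 2733, 1044 and 2136 at D2. They were 3055, 1640 and 1816 at D7, 1622, 811 and 2520 at D14, and 2091, 962 and 2218 at D16. The values of all 6 days overlapped, and letter B was lowest on D1, D2, D7, D14 and D16. The differences from D0 ran from -0.26 ± 0.47 at D14 (adjusted p = 0.779) to 0.22 ± 0.47 at D7 (adjusted p = 0.736). Without cytoplasmic D14 B and D16 B the MALAT1 differences were 0.18 at D14 and 0.27 at D16, and did not pass either. The lowest unadjusted p was 0.588, and edgeR and DESeq2 on whole reads called no day either. The intervals are wide: 95 percent limits were -1.18 and 0.81 at D1 and -0.77 and 1.22 at D7, and thus reach a change of about 1 log2 unit in one or both directions.

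MALAT1 rose in the heavy pool at D2 and D16. There its normalised counts were 297, 492 and 474 at D0, 1066, 502 and 636 at D1, and 665, 1355 and 619 at D2. They were 451, 677 and 697 at D7, 431, 689 and 1021 at D14, and 830, 1063 and 1767 at D16. The libraries of D1, D2 and D16 lay above all D0 libraries, whereas D7 A and D14 A lay within the D0 range. MALAT1 was 2.00-fold above D0 at D2 (1.00 ± 0.33, adjusted p = 0.0105) and 2.82-fold above it at D16 (1.5 ± 0.33, adjusted p = 0.000314). D1 (0.76 ± 0.33, adjusted p = 0.0606), D7 (0.54 ± 0.33, adjusted p = 0.157) and D14 (0.71 ± 0.33, adjusted p = 0.0575) did not pass. With the letter as a block D14 passed (adjusted p = 0.0483). The D2 call was lost without D0 A (0.77, adjusted p = 0.0693) or D2 B (0.64, adjusted p = 0.099), while D1 passed without D1 B (1.00, adjusted p = 0.0257) and D14 without D14 A (1.03, adjusted p = 0.0106). All neighbours in the order of means (D16, D2, D1, D14, D7, D0) overlapped.

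PVT1 rose in the cytoplasm to a maximum at D7 and fell again by D14. Its cytoplasmic normalised counts were 6161, 5291 and 5058 at D0, 10206, 10106 and 7532 at D1, and 17058, 9445 and 7676 at D2. They were 30978, 14711 and 17860 at D7, 8754, 11648 and 9961 at D14, and 7110, 7990 and 8177 at D16. Every later library lay above all D0 libraries, and letter A was the highest at D2 and D7. PVT1 changed by 0.97 ± 0.28 at D2 (adjusted p = 0.0156), by 1.87 ± 0.28 at D7 (adjusted p = 0.000112, 3.67-fold higher) and by 0.87 ± 0.28 at D14 (adjusted p = 0.0455). D1 (0.75 ± 0.28, adjusted p = 0.0703) and D16 (0.50 ± 0.28, adjusted p = 0.239) did not pass, and D1 passed with the letter as a block (adjusted p = 0.0335). PVT1 rose between D2 and D7 (0.91, adjusted p = 0.0277, with overlapping libraries) and fell by 1.00 between D7 and D14 (adjusted p = 0.0114; -1.11 without cytoplasmic D14 B and D16 B). The D7 rise over D0 passed in every fit that left out a library or a letter. The D14 call was lost without any 1 of its 6 libraries (adjusted p from 0.0659 to 0.138), also without D14 B (0.77, adjusted p = 0.124). The D2 call was lost without D0 B, D0 C or D2 A (0.63 to 0.94), the step from D2 to D7 without D2 B, D2 C or D7 A (0.59 to 0.81), and the fall to D14 without D7 A (-0.69, adjusted p = 0.0739). Library D7 A also had the highest share of ribosomal protein reads in the cytoplasm (21.5 percent, against 9.48 percent in the lowest library), whose part in the result was not tested.

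PVT1 rose in the heavy pool on all 5 days, most at D14, when its cytoplasmic level had come down. There its normalised counts were 1121, 1298 and 1321 at D0, 1603, 1731 and 1526 at D1, and 1872, 1899 and 1893 at D2. They were 2253, 2318 and 2097 at D7, 5538, 6720 and 6557 at D14, and 4710, 4156 and 6664 at D16. From D0 to D7 each group lay above the one before without overlapping it, and the D14 and D16 libraries all lay well above them. The changes from D0 were 0.38 ± 0.13 at D1 (adjusted p = 0.016), 0.60 at D2 (adjusted p = 0.000216) and 0.84 at D7 (adjusted p = 4.82e-06). They were 2.33 at D14 (adjusted p = 5.91e-13, 5.02-fold) and 2.03 at D16 (adjusted p = 2.82e-12, 4.08-fold), each with the same SE. The step from D7 to D14 was 2.81-fold (1.49 ± 0.13, adjusted p = 2.34e-09). The difference between D14 and D16 (-0.30, adjusted p = 0.0948) did not pass, but did without D16 C (-0.50, adjusted p = 0.00196). The D1 call was lost without D0 A (0.30, adjusted p = 0.0849) or D1 B (adjusted p = 0.0584). The small steps from D1 to D2 (0.22, adjusted p = 0.143) and D2 to D7 (0.23, adjusted p = 0.115) did not pass.

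**Figure D2:**
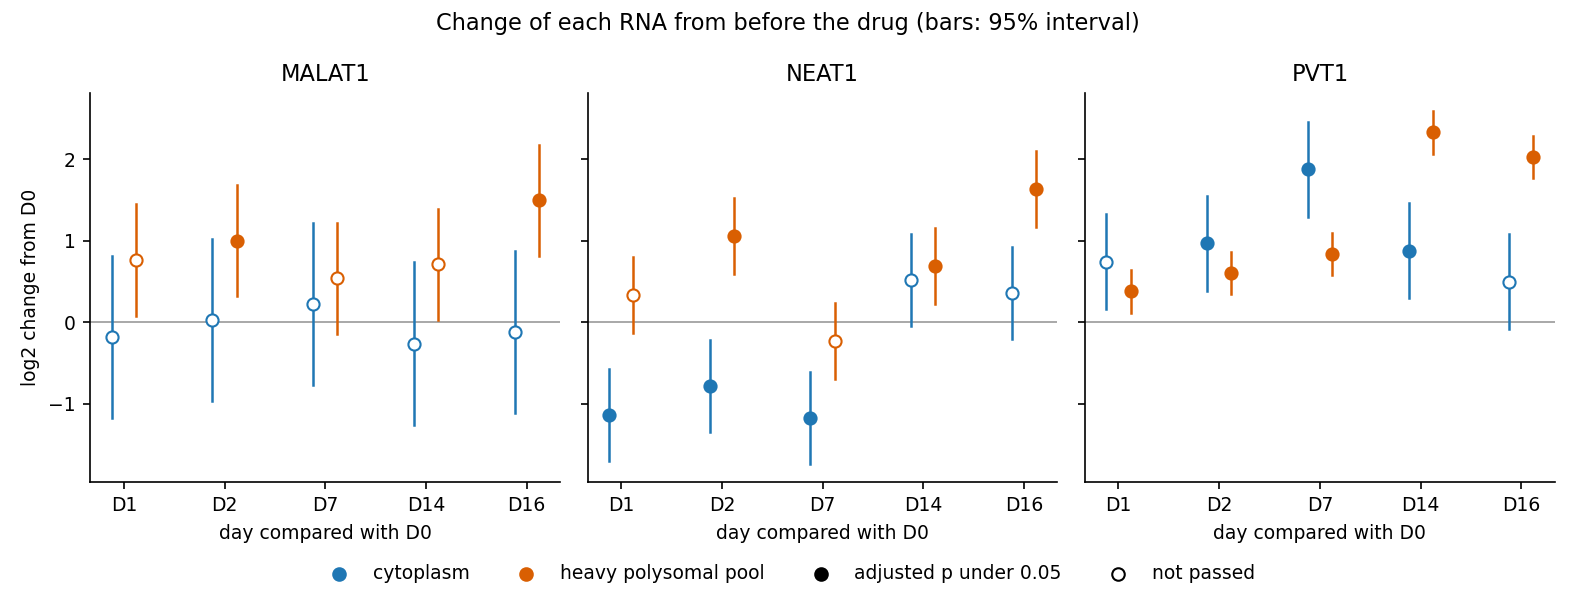
Log2 change of each RNA from D0 in the cytoplasm (blue) and the heavy pool (orange) on each later day, with 95 percent intervals from limma and filled points where the adjusted p was under 0.05. At D1, D2 and D7 NEAT1 lies below 0 in the cytoplasm, and PVT1 lies above 0 on every day in both fractions.

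These counts of members have to be read against how many genes changed at all. In the cytoplasm 1 of the 3 members passed at D1, when 17.9 percent of all genes did, 2 passed at D2 (24.8 percent), 2 at D7 (34 percent), 1 at D14 (12.8 percent) and none at D16 (16.7 percent, lowest unadjusted p among the members 0.0891, with none called by edgeR or DESeq2 either). In the heavy pool 1 member passed at D1 (47 percent), 3 at D2 (64.9 percent), 1 at D7 (63.5 percent), 2 at D14 (72 percent) and 3 at D16 (72.8 percent). For the steps, none of the members passed from D1 to D2 in the cytoplasm (8.48 percent of genes, lowest unadjusted p 0.201), PVT1 passed from D2 to D7 in the cytoplasm (21.3 percent of genes) and 2 members from D7 to D14 (35.6 percent). Heavy pool NEAT1 passed from D1 to D2 (51.3 percent) and from D2 to D7 (57.1 percent), 2 members from D7 to D14 (58.4 percent), and NEAT1 from D14 to D16 (18.9 percent). A change on any day passed in the cytoplasm for NEAT1 (F test, adjusted p = 9.15e-05) and PVT1 (adjusted p = 0.000737) but not for MALAT1 (adjusted p = 0.927), against 61.5 percent of genes. It passed in the heavy pool for all 3 (adjusted p = 0.00582, 4.09e-07 and 1.59e-13 for MALAT1, NEAT1 and PVT1), as for 95.1 percent of genes. All comparisons with D0 share the D0 libraries. In size, the 5.02-fold heavy pool rise of PVT1 at D14 was higher than the change of 98.6 percent of genes, and the D7 cytoplasmic fall of NEAT1 was lower than that of all but 7.86 percent.

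MYC, the transcription factor gene next to PVT1, did not pass on any single day in the cytoplasm. Its cytoplasmic normalised counts were 17516, 17316 and 19506 at D0 and 7453, 22078 and 23713 at D7, where PVT1 was at its peak, and its differences from D0, between -0.60 at D1 and 0.58 at D16, had a lowest unadjusted p of 0.0858, while the F test for a change on any day passed (adjusted p = 0.0263). Heavy pool MYC was 32804, 33549 and 36359 at D0 and 27158, 24195 and 25368 at D14. There it fell by 0.64 at D1 (adjusted p = 6.92e-05), by 0.59 at D2 (adjusted p = 6.66e-05), by 0.42 at D14 (adjusted p = 0.00184) and by 0.63 at D16 (adjusted p = 2.44e-05), days on which PVT1 rose in the same pool. At D7, when PVT1 also rose there, the MYC difference was 0.16 (adjusted p = 0.207). Over the 18 libraries of a fraction, which share days and letters, the correlation of MYC with PVT1 was -0.38 in the cytoplasm and -0.34 in the heavy pool.

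Before the drug all 3 RNAs were much lower in the heavy pool than in the cytoplasm, on the scale of the authors' size factors. That scale compares an RNA with the other RNAs of its fraction and does not give the share of its molecules, and a place in the gradient does not by itself show that a noncoding RNA is bound by ribosomes. At D0 the heavy pool held 14.7, 22.7 and 36.3 percent of the cytoplasmic normalised count of MALAT1 in letters A, B and C. The corresponding values were 20.2, 23.6 and 30.5 percent for NEAT1 and 18.2, 24.5 and 26.1 percent for PVT1. All 3 members passed (45.8 percent of genes did), with log2 differences of -2.12 ± 0.45 (adjusted p = 0.000368), -2.03 ± 0.26 (adjusted p = 6.4e-07) and -2.14 ± 0.22 (adjusted p = 2.59e-08). Of all genes, 0.642, 0.944 and 0.585 percent lay lower than MALAT1, NEAT1 and PVT1.

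PVT1 stayed depleted from the heavy pool through D7, the day with its lowest log2 difference, though the change from D0 to D7 did not pass (adjusted p = 0.0558). The heavy pool held 15.7, 17.1 and 20.3 percent of its cytoplasmic level at D1, 10.97, 20.1 and 24.7 percent at D2, and 7.27, 15.8 and 11.7 percent at D7. At D14 the values were 63.3, 57.7 and 65.8 percent and at D16 66.2, 52.0 and 81.5 percent, all above every earlier one. The log2 difference was -2.51 ± 0.22 at D1 (adjusted p = 4.76e-10), -2.51 at D2 (adjusted p = 3.58e-10) and -3.18 at D7 (adjusted p = 1.55e-12, 9.05-fold lower). It was -0.69 at D14 (adjusted p = 0.168) and -0.61 at D16 (adjusted p = 0.379). With the narrower spread of genes on those days, 3.35 percent of genes at D14 and 3.86 percent at D16 still lay lower than PVT1. Both fractions contributed: between D7 and D14 the cytoplasmic level fell and the heavy pool level rose.

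NEAT1 was less depleted at D1, D2 and D16 than at D0, while D14 resembled D0. The heavy pool held 60.6, 86.1 and 60.1 percent of its cytoplasmic level at D1, 70.5, 178 and 53.8 percent at D2, and 62.9, 38.5 and 42.7 percent at D7. It held 26.7, 30.9 and 25.2 percent at D14, close to the D0 values, and 48.5, 71.7 and 59.5 percent at D16. Every library pair of D1, D2, D7 and D16 lay above every D0 pair. The log2 difference was -0.56 ± 0.26 at D1 (adjusted p = 0.0668), -0.19 at D2 (adjusted p = 0.576), -1.09 at D7 (adjusted p = 0.000792), -1.86 at D14 (adjusted p = 1.61e-05) and -0.76 at D16 (adjusted p = 0.323). At D14, when few genes differed between the fractions, 0.441 percent of genes lay lower than NEAT1, and without cytoplasmic D14 B and D16 B its difference was -2.02 (adjusted p = 2.27e-05). The D1 difference passed without cytoplasmic D1 B (-0.86, adjusted p = 0.0085) or heavy D1 A (-0.72, adjusted p = 0.036), and the D7 call was lost with total-sum scaling (-0.49, adjusted p = 0.157).

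MALAT1 varied widely between letters in this comparison. The heavy pool held 48.7, 61.7 and 29.1 percent of its cytoplasmic level at D1, 24.3, 130 and 28.98 percent at D2, and 14.8, 41.2 and 38.4 percent at D7. It held 26.6, 84.9 and 40.5 percent at D14 and 39.7, 110 and 79.7 percent at D16. Letter B gave the highest percentage on all days after D0, and above 100 at D2 and D16. The difference passed at D1 (-1.17 ± 0.45, adjusted p = 0.0266), D2 (-1.15, adjusted p = 0.0367) and D7 (-1.80, adjusted p = 0.00117), and did not at D14 (-1.15, adjusted p = 0.296) or D16 (-0.51, adjusted p = 0.797). Its D1 and D2 calls were each lost without any of 4 libraries (adjusted p up to 0.118 and 0.195): at D1 the cytoplasmic A and C and heavy B and C libraries, at D2 the A and C libraries of both fractions. The D7 call was lost without letter A in both fractions (-1.33, adjusted p = 0.0649).

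**Figure D3:**
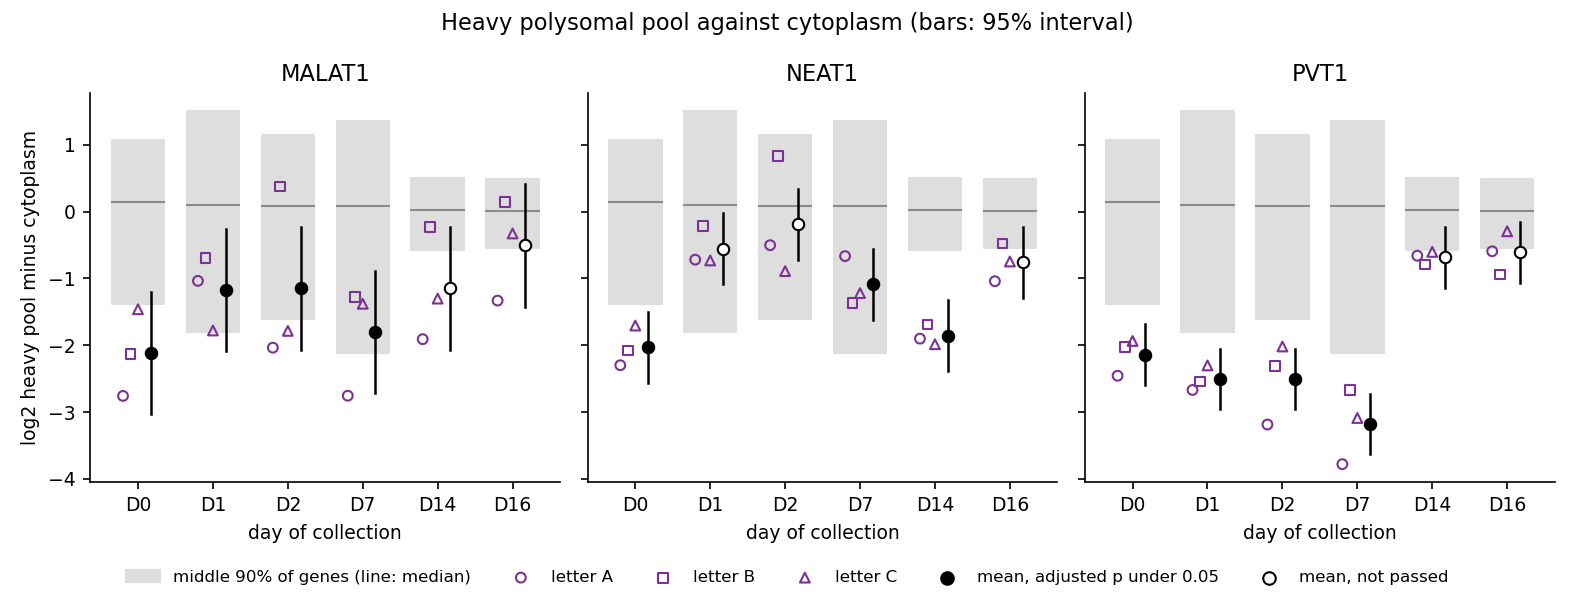
Log2 difference of the heavy pool and the cytoplasm for each letter (open purple shapes) and the limma mean with its 95 percent interval (filled where the adjusted p was under 0.05), by day, over a grey box that holds the middle 90 percent of genes. PVT1 lies below the box from D0 to D7 and near its lower edge at D14 and D16, and the box itself is narrower on those days.

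Of the members, 2 were called at D1 (58.3 percent of genes were), 2 at D2 (46.2 percent), 3 at D7 (56.6 percent) and 1, NEAT1, at D14 (1.23 percent). None was called at D16 (0.85 percent), where the lowest unadjusted p was 0.00671, and DESeq2 and edgeR on whole reads called none there either. With libraries weighted by their spread, all 3 members passed at D16: MALAT1 (adjusted p = 0.00827), NEAT1 (adjusted p = 0.00091) and PVT1 (adjusted p = 1.99e-05).

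The test of whether the 2 fractions changed differently from D0 was the interaction of fraction and day. For NEAT1 the heavy pool gained on the cytoplasm by 1.47 ± 0.37 at D1 (adjusted p = 0.0263), by 1.84 ± 0.37 at D2 (adjusted p = 0.0063) and by 1.27 ± 0.37 at D16 (adjusted p = 0.00969), in all 3 letters each time. These were the days when its heavy to cytoplasmic percentage was 68.95 ± 14.9, 101 ± 67.4 and 59.9 ± 11.6 (SD, n = 3), against 24.8 ± 5.27 at D0. For PVT1 the gain was 1.45 ± 0.32 at D14 (adjusted p = 0.00174) and 1.53 ± 0.32 at D16 (adjusted p = 0.000743). From D7 to D14 alone it was 2.49 ± 0.32 (adjusted p = 1.47e-06), 5.63-fold, also in 3 of 3 letters. The loss of PVT1 at D7 did not pass (-1.04 ± 0.32, adjusted p = 0.0558), nor in paired differences between fractions (a replicate block, adjusted p = 0.0881). It passed with the letter as a block (adjusted p = 0.0478), under DESeq2 (adjusted p = 0.0201) and without cytoplasmic D7 B (-1.26, adjusted p = 0.0105) or D7 C (-1.12, adjusted p = 0.0461). For MALAT1 no day passed. D16 came nearest (1.61 ± 0.64, adjusted p = 0.0544) but did not pass in paired differences (adjusted p = 0.072). It passed with the letter as a block (adjusted p = 0.0429), under edgeR (adjusted p = 0.048) and DESeq2 (adjusted p = 0.0272), and without any of 4 single libraries, cytoplasmic D0 C, D16 A or D16 C or heavy D16 A (lowest adjusted p = 0.0392).

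One member passed this test at D1 (4.16 percent of genes did), 1 at D2 (2.06 percent), none at D7 (3.95 percent, lowest unadjusted p 0.00252), 1 at D14 (28.3 percent), 2 at D16 (29.5 percent) and 1 from D7 to D14 (41 percent). A change of the ratio on any day passed for NEAT1 (F test, adjusted p = 0.000439) and PVT1 (adjusted p = 2.37e-07) and not for MALAT1 (adjusted p = 0.246), against 54.1 percent of genes. The gain of NEAT1 at D2 was higher than that of 99.9 percent of genes. For NEAT1 the D1 call was lost in the fit of paired differences between fractions (a replicate block, adjusted p = 0.0864) and without 7 of 12 single libraries (adjusted p up to 0.118), which were cytoplasmic D0 B and D1 B, heavy D0 A, D0 B and D0 C, and heavy D1 A and D1 C. Its D2 call was lost without a whole letter (adjusted p = 0.17 without A, 0.249 without B and 0.0848 without C) and its D16 call without letter A (adjusted p = 0.0554) or C (adjusted p = 0.0777). The PVT1 calls at D14 and D16 passed in every fit that left out a library or a letter, and without cytoplasmic D14 B and D16 B together, where they were 1.56 and 1.55. For NEAT1 the D16 gain was then 1.10 (adjusted p = 0.0288).

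Letters differed within a day far more for MALAT1 than for most RNAs. The within-day SD of MALAT1 was 0.67 (log2) in the cytoplasm, above that of 96.5 percent of 4679 genes of similar level, and 0.53 in the heavy pool, above 99.8 percent of 4551 such genes. For NEAT1 it was 0.32 and 0.33, above 37.7 and 95.5 percent of genes of similar level, and for PVT1 0.37 and 0.17, above 72.0 and 81.5 percent. Similar level means a mean within 1 log2 unit. In the cytoplasm the deviations of MALAT1 and NEAT1 from their day's mean went together (r = 0.79 over 18 libraries, 0.61 in the heavy pool). They were lower in libraries shifted towards GC-rich genes (r = -0.76 for MALAT1 and -0.81 for NEAT1), while PVT1 followed this shift little (r = 0.28). The longest transcripts have a GC content of 40.3 percent in MALAT1, 44.1 percent in NEAT1 and 52.2 percent in PVT1, above 15.3, 31.2 and 61.1 percent of genes. The same correlations in the heavy pool were -0.41 for MALAT1, -0.09 for NEAT1 and -0.37 for PVT1. With a GC trend removed within each group, the within-day SD of MALAT1 was 0.48 in the cytoplasm and 0.51 in the heavy pool. The letters recur over the days, and these correlations are descriptions over 18 libraries.

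**Figure D4:**
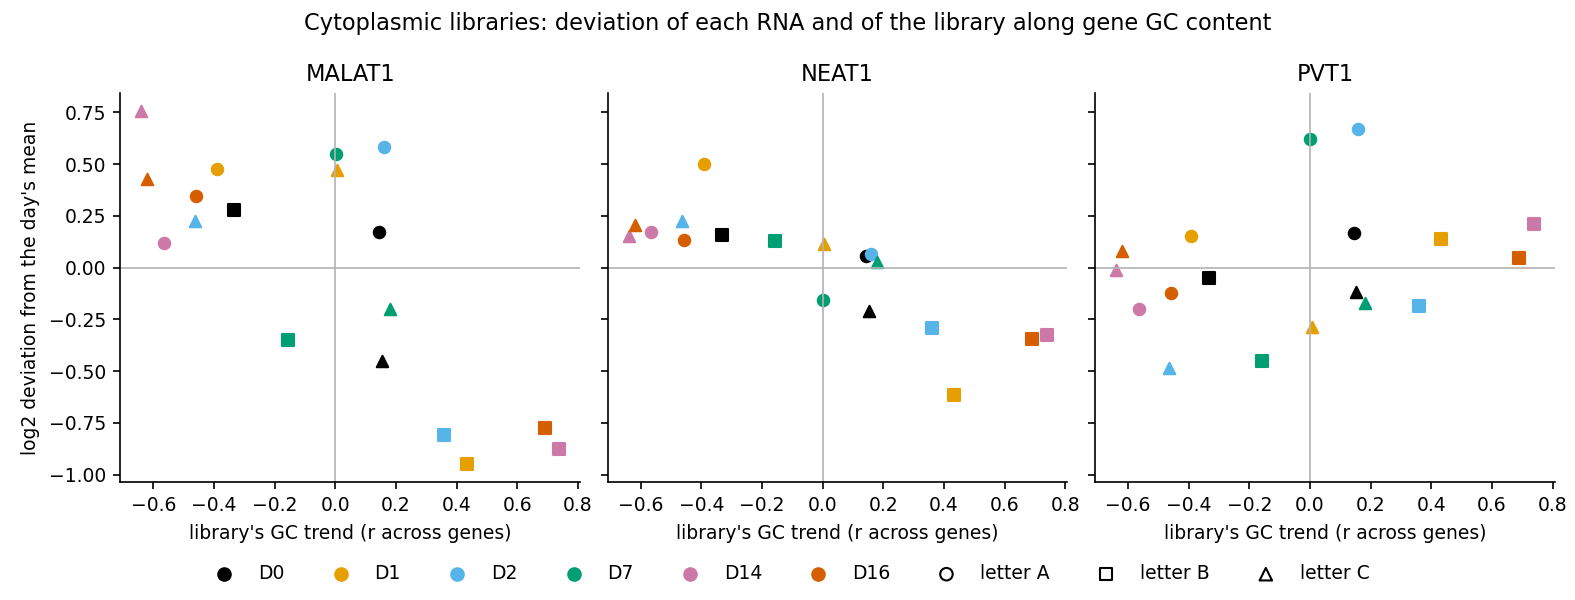
Deviation of each RNA from its day's cytoplasmic mean (log2, y axis) against the correlation, across genes, of the library's deviations with gene GC content (x axis), with colours for days and shapes for letters. MALAT1 and NEAT1 are lowest in the B libraries of D1, D2, D14 and D16 at the right, and PVT1 shows no such slope.

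The mRNAs of proteins that build paraspeckles with NEAT1 were mostly lower from D2 onwards in both fractions, and from D1 in the heavy pool. Of 19 mRNAs of paraspeckle proteins, 18 fell and 0 rose in the cytoplasm at D2 (median -1.35, against -0.00 for all genes) and 15 fell at D7 (median -0.85, against 0.01). In the heavy pool 19 of 19 fell at D2 (median -1.66, against -0.03), D7 (-0.98, against -0.11) and D16 (-1.24, against 0.02). SFPQ, an RNA-binding core protein of the paraspeckle, fell by 3.01 ± 0.12 in the D2 heavy pool (adjusted p = 2.1e-15), and HNRNPM (-2.80 ± 0.14) and RBMX (-2.69 ± 0.08), which also bind RNA, fell with it. NEAT1 rose in the same pool on that day. At D1, when cytoplasmic NEAT1 had already fallen, 7 of the 19 were lower and 3 higher in the cytoplasm (7.09 and 10.9 percent of all genes). The D1 heavy pool had 13 lower and 3 higher (median -0.42, against -0.06), with 26.9 and 20.1 percent of all genes. Over the settings, 10 to 14 were lower there. Without letter C the cytoplasmic counts of lower genes dropped from 15 to 5 at D7, from 12 to 1 at D14 and from 11 to 0 at D16, while in the heavy pool they ran from 16 to 19 on D2, D7, D14 and D16 in all settings. Of all genes, 10.6 percent were lower in the cytoplasm at D2 and 15.7 percent at D7, and in the heavy pool 34.5 percent at D2, 36.5 percent at D7 and 36.6 percent at D16.

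The mRNAs of nuclear speckle proteins, the bodies where MALAT1 resides, were mostly lower at D2 and D7 in both fractions, and in the heavy pool also at D14 and D16. Of 18 such mRNAs, 12 fell and 0 rose in the cytoplasm at D2 (median -0.98) and 13 fell at D7 (median -0.69), against 2 at D1, 3 at D14 and 5 at D16. Among all genes 10.6 and 15.7 percent fell in the cytoplasm at D2 and D7, and 7.09, 5.05 and 7.26 percent at D1, D14 and D16. Among heavy pool values 14 fell at D2 (median -1.25) and 17 at D7 (median -0.70), against 34.5 and 36.5 percent of all genes. The splicing factors SRSF2 (-2.53 ± 0.09, adjusted p = 5.77e-16) and SRSF7 (-2.30 ± 0.08) were among them, while cytoplasmic MALAT1 did not pass on these days. At D1 the list was divided in the heavy pool, with 5 higher and 7 lower (20.1 and 26.9 percent of all genes). At D14 and D16, 14 were lower and 0 higher in that pool (medians -0.54 and -0.55, against -0.02 and 0.02). On these 2 days 37.6 and 36.6 percent of all genes were lower there. The settings gave 9 to 15 lower at D14, and 7 to 15 lower and 0 to 4 higher at D16. SRRM2, a scaffold of the speckle, was higher at D1 (1.05 ± 0.14) and lower at D7 (-1.17 ± 0.14). Without letter C the count of lower genes in the D7 cytoplasm was 0, and with total-sum scaling that in the D7 heavy pool was 11.

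Other noncoding RNAs give the setting for the 3 members. At D0, 3 of 8 other RNAs known as nuclear were lower in the heavy pool and 0 higher (median -0.61, against 0.14 for all genes), and 9 of 11 listed as cytoplasmic were lower too (median -1.09). Of all genes, 19.1 percent were lower. GAS5, a snoRNA host transcript, was lower by 1.46 ± 0.28 (log2, adjusted p = 0.000134), and JPX, an X-linked noncoding RNA, gave -1.81 ± 0.45 (adjusted p = 0.00156). In the cytoplasm TUG1 (-1.26 ± 0.29, adjusted p = 0.00703) was the 1 other nuclear RNA that fell at D1, when NEAT1 fell. At D2, 2 of the 8 rose, LINC-PINT (1.73 ± 0.48) and MIR22HG (1.28 ± 0.39), and NEAT1 fell. Among all genes 7.09 percent fell in the cytoplasm at D1 and 14.2 percent rose at D2. In the heavy pool 4 of the 8 rose and 0 fell at D2 (median 0.68, against -0.03), and 5 rose and 0 fell at D16 (median 0.57, against 0.02), days on which all 3 members rose, and on which 30.4 and 36.2 percent of all genes did. The most rose at D7, when PVT1 was the only member to pass: 6 rose and 1 fell (median 0.89, against -0.11), with 27 and 36.5 percent of all genes. At D1 and D14, 3 and 4 of the 8 rose and 0 fell, with 20.1 and 34.4 percent of all genes higher. For the gain of the heavy pool on the cytoplasm, TUG1 passed at D1 (1.18 ± 0.33, adjusted p = 0.041) and JPX (1.70 ± 0.63) and MIR22HG (1.23 ± 0.44) passed at D16. Such a gain passed for 0.787 percent of all genes at D1 and 11.6 percent at D16. None of the 8 passed at D1 with total-sum scaling or without any one letter, nor at D16 under edgeR, without letter B or C, or without cytoplasmic D14 B and D16 B. Of the 11 RNAs listed as cytoplasmic, 9 rose and 0 fell in the D7 cytoplasm, where PVT1 peaked (18.3 percent of all genes rose). All 11 were then lower in the heavy pool than in the cytoplasm (median -2.00, 26.4 percent of all genes lower). In the D14 heavy pool 8 rose and 2 fell against D0 (34.4 and 37.6 percent of all genes). From D7 to D14 the heavy pool gained on the cytoplasm for 6 and lost for 0 (20.7 and 20.2 percent of all genes).

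NEAT1 and PVT1 are both listed as p53-responsive, and their cytoplasmic levels moved in opposite directions at D2 and D7. Of 5 other noncoding RNAs on that list, 2 rose and 1 fell at D1, and 5 of 5 rose at D2 (median 3.22) and D7 (median 2.29), where 14.2 and 18.3 percent of all genes did. Without replicate C, 3 of the 5 rose on each of these days. PURPL, a p53-induced transcript, rose by 3.22 ± 0.54 at D2 (adjusted p = 0.00029). Among 20 p53 target mRNAs, 18 rose at D1 (median 1.99), 19 at D2 (median 2.29) and 15 at D7 (median 1.66), with 0 falling. Among all genes 10.9, 14.2 and 18.3 percent rose in the cytoplasm on these days, and 7.09 percent fell at D1. CDKN1A, which encodes the cell cycle inhibitor p21, rose by 3.60 at D1 and 4.51 at D2. In the cytoplasm PVT1 rose on D2 and D7 and NEAT1 fell on both days. In the D2 heavy pool NEAT1 rose too, as did 19 of the 20 targets and 5 of the 5 other noncoding RNAs, against 30.4 percent of all genes. From D7 to D14, when PVT1 rose in the heavy pool, 19 of the 20 targets fell there and 0 rose (median -1.22). Of all genes, 28.9 percent fell in that step. In the cytoplasm PVT1 fell in the same step, as did 11 targets, and 0 rose (19.1 percent of all genes fell). Against D0, 11 targets were higher and 6 lower in the D14 heavy pool (34.4 and 37.6 percent of all genes). At D16 these were 10 and 7 (36.2 and 36.6 percent).

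Genes that lie beside the members on the chromosome were listed as neighbours. Of 12 measured neighbours of NEAT1 and MALAT1 on chromosome 11, 2 were higher and 0 lower in the D1 cytoplasm, where NEAT1 fell. There 10.9 percent of all genes were higher, and the count of higher neighbours ran from 0 to 6 over the settings. In the D2 heavy pool, where both RNAs rose, 3 neighbours were higher and 4 lower (median -0.15, against -0.03). Of all genes, 30.4 and 34.5 percent were higher and lower there. In the heavy pool at D16, where both RNAs rose, 9 neighbours fell and 1 rose (median -0.89, against 0.02 for all genes, of which 36.6 percent fell), among them POLA2, a subunit of DNA polymerase alpha (-2.18 ± 0.18), DPF2 (-1.40 ± 0.10) and RELA, an NF-κB subunit (-1.05 ± 0.11). Around PVT1, 3 neighbours on the side of MYC away from it rose in the cytoplasm at D7. CASC8, a long noncoding RNA, rose by 3.58 ± 0.38 in the cytoplasm at D7 (adjusted p = 5.65e-06), POU5F1B, a retrogene of POU5F1, by 2.63 ± 0.49 (adjusted p = 0.000766) and PCAT1, another noncoding RNA, by 1.49 ± 0.48 (adjusted p = 0.0244). These were 3 of 8 measured neighbours, and 0 fell, against 18.3 percent of all genes higher. In the D14 heavy pool 4 rose and 3 fell (34.4 and 37.6 percent of all genes did), with CASC8 at 2.78 ± 0.16 and POU5F1B at 2.65 ± 0.31. CASC8 lies on the strand opposite to POU5F1B and PCAT1 and overlaps both, and POU5F1B shares sequence with POU5F1, so how reads fall to each of these 3 genes is uncertain.

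Profiles over the 18 libraries of a fraction were compared with those of genes with a mean of at least 100, as a description. Cytoplasmic PVT1 was most like CST3 (r = 0.97), C16orf74 (0.97) and NCBP2AS2 (0.97), and heavy pool PVT1 most like DPM3 (0.98), TSPAN13 (0.98) and SEC11C (0.98). Cytoplasmic NEAT1 was most like ADAM10 (0.95), FNBP4 (0.95) and GALNT7 (0.94), and heavy pool NEAT1 most like F2R (0.92), LRRC37A (0.91) and USP49 (0.90). Likeness was lower for MALAT1, with NUCB2 (0.87), WBP4 (0.87) and ZNF480 (0.86) in the cytoplasm and ZNF816 (0.80), CNEP1R1 (0.78) and BOD1L1 (0.75) in the heavy pool. With the means of the 6 days these genes gave 0.58, 0.63 and 0.93 in the cytoplasm and 0.96, 0.99 and 0.92 in the heavy pool. By day means NUCB2 and WBP4 ranked 2314 and 1913 of 13008 genes. Likeness over 18 libraries thus holds differences between letters as well as between days. Among the members, MALAT1 and NEAT1 gave r = 0.12 in the cytoplasm and 0.75 in the heavy pool, NEAT1 and PVT1 -0.51 and 0.54, and MALAT1 and PVT1 0.21 and 0.48. With day means these pairs gave -0.56 and 0.87, -0.57 and 0.59, and 0.52 and 0.60. The profile of NEAT1 was thus more like those of MALAT1 and PVT1 in the heavy pool than in the cytoplasm. For MALAT1 and PVT1 the day means gave a similar r in both fractions. The libraries share days and letters, so these values carry no test.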

How the data were processed

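The deposited values are a signal: the authors divided gene read counts by 1 size factor per library. The submitters' processing notes name STAR 2.7.9a, DESeq2 1.30.1, cutadapt 3.2, FastQC 0.11.9, featureCounts (from Subread 2.0.1) and the build GRCh38. RNA was selected with oligo-dT and the kit marks strand, per the labels' protocols. The table has 54 columns. Of these, 36 were matched to samples by name, and 18 match no sample and were not used. After dividing by what 1 read is worth, 100 percent of values came out whole (tolerance 0.01). No 2 libraries were identical.

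Values were taken as log2(value + 1), which understates changes of low genes. A gene was kept if 3 or more libraries had 10 or more. limma 3.58.1 (trend, R 4.3.3) was fitted to group means of 18 cytoplasmic libraries (15889 genes), 18 heavy pool libraries (15852) and all 36 (15891). Tests were two-sided, adjusted by Benjamini-Hochberg over all genes kept, and called under 0.05. edgeR 4.0.16 and DESeq2 1.42.0 were run on the whole reads as alternatives. On simulated data with 50 genes changed 2-fold, 11 were recovered for the cytoplasm at D2 and 47 for the heavy pool, and with 4-fold 43 and 50. Far fewer genes changed there than passed in the data at D2 (24.8 and 64.9 percent). The adjusted p depends on that share, so these counts do not give the sensitivity of the fits reported here.

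The labels give the letters as batches, so it was checked whether same-letter libraries go together. The check gave a mean r between same-letter deviations of 0.19 for the cytoplasm, where 27 of 45 exceeded 0.1, and 0.068 for the heavy pool, where 20 of 45 did. Between fractions of the same day and letter the mean r was -0.0009, and 5 of 18 did. The main fits, also those that compare the fractions, have no block and no pairing, and alternatives have them. Gene models, GC content and ends come from GENCODE 29. Named genes are the 3 members, the 3 genes most like each member in a fraction, up to 4 called members with the largest difference from each list in a comparison, MYC and CDKN1A. Some genes that the rule takes are left unnamed. The members and lists were chosen with earlier results of these data known. No p-value was computed for a list.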

Additional observations from a re-analysis of the deposited data

Results flagged for a closer look

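For 2 of the RNAs the change over days differed between the cytoplasm and the heavy pool by a test of the difference itself (limma, interaction of fraction and day). For NEAT1 the heavy pool exceeded the cytoplasmic change from D0 by 1.47 at D1, 1.84 at D2 and 1.27 at D16 (log2). The D1 difference did not pass in paired differences (adjusted p = 0.0864), the D2 difference without any one letter (adjusted p = 0.0848 to 0.249), and the D16 difference without letter A or C. For PVT1 it did so by 1.45 at D14 and 1.53 at D16, and by 2.49 in the step from D7 to D14. The NEAT1 differences came with a lower cytoplasmic level at D1 and D2, and with a higher heavy pool level at D2 and D16. The PVT1 step came with a fall in the cytoplasm and a rise in the heavy pool, on days when the fractions were closer to each other for most genes. Ribosomal protein mRNAs made up 9.42 to 11.3 percent of heavy pool reads on D14 and D16 and 4.70 to 6.49 percent before, and their part in the result was not tested.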

How the results depend on the processing

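With pseudocounts of 0.1 or 10, no filter, or a filter at 100, all 99 member comparisons kept direction and side of the threshold. The most changes came from library weights (74 kept), which reversed cytoplasmic MALAT1 at D2 to -0.73 from 0.03 and gave its any-day test an adjusted p of 0.024; the cause was not tested.
Days passing against D0 in the cytoplasm: MALAT1 0, and 1 with library weights. NEAT1 passed on 3, on 5 with library weights, and on 0 to 3 without a letter or library (0 without replicate C). PVT1 passed on 3, on 5 with library weights or with only the groups compared in the fit, and on 1 (without B) to 4 (without A).
In the heavy pool MALAT1 passed on 2 days, on 5 with total-sum scaling or only the groups compared, on 4 with TMM, edgeR or a GC adjustment within groups (added after seeing the data), and on 1 (without H D0 A) to 4 (without H D14 A). Total-sum scaling moves the median of all genes in the heavy pool to between 0.13 and 0.44, and the D2 heavy pool calls from 4820 higher of 10290 to 7823 of 10916.
Heavy pool against cytoplasm, MALAT1 passed on 4 days, on 2 with total-sum scaling and on 1 (without A) to 4; NEAT1 on 3, on 2 with total-sum scaling, and on 3 to 5 (5 without B) without a letter or library.
For the change of that difference, MALAT1 passed on 0 days, on 1 with total-sum scaling, the replicate block, edgeR, DESeq2, the GC adjustment or only the groups compared, on 2 with library weights, and on 0 to 1 without a library; NEAT1 on 3, and 0 (without A) to 3.
The replicate block changed no call other than those given above. The lowest member count was 129 reads. With 3 libraries per group, 11 of 50 simulated 2-fold changes were recovered in the D2 cytoplasm, where far fewer genes changed than in the data.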
